A study of Rattus norvegicus with 36 samples.

Results

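The genes described here are 9 constitutive cytochrome P450 genes of rat liver, namely Cyp2c6v1, Cyp2c7, Cyp2c11, Cyp2c13, Cyp2c22, Cyp2c23, Cyp2a1, Cyp2a2 and Cyp2e1. They were chosen by platform gene symbol, and each of the 9 was read by 1 probe set with a single symbol, out of 31042 probe sets tested and 14217 distinct symbols. The study gave hexabromocyclododecane (HBCD), a brominated flame retardant, to male Harlan Sprague Dawley rats by oral gavage in corn oil at 5 ml/kg. Dosing began at 7 weeks of age and ran for 5 days in a row, and the left liver lobe was taken 1 day after the last dose for hybridization to rat expression arrays. The 36 arrays formed 6 groups of 6: vehicle (corn oil alone) and HBCD at 0.06 mg/kg, 0.641 mg/kg, 6.41 mg/kg, 64.1 mg/kg and 641 mg/kg. All groups, vehicle included, had corn oil and the same diet. Replicates are numbered in the labels, which do not say whether 1 rat gave 1 array, and the p-values describe the scatter among arrays, part of which may be technical.

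Microsomal P450 enzymes insert an oxygen atom into drugs, steroids and fatty acids with electrons passed on by P450 oxidoreductase. The CYP2C and CYP2A enzymes make up much of the P450 of rat liver, and several are made mostly in one sex under the pulsatile male or continuous female pattern of growth hormone. The receptors CAR and PXR, which many halogenated chemicals switch on, raise the CYP2B and CYP3A genes strongly and some CYP2C genes more weakly, while CYP2E1, made in hepatocytes around the central vein, is regulated largely after transcription.

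All 9 genes lie on chromosome 1 in the RefSeq annotation of the assembly GRCr8. Cyp2a1 and Cyp2a2 are neighbours there, as are Cyp2c6v1 and Cyp2c7, and Cyp2c13 and Cyp2c22. Promoters of 7 of the 9 genes, all but Cyp2c6v1 and Cyp2a2, were matched in the RefSeq promoter table. The 4 windows printed here belong to genes whose 641 mg/kg level was held within 1.2-fold of vehicle, as described further on, and they were chosen because the octamer TTATAAAA, a TATA-type box, was read in them. Each window is the 120 bases before the annotated start, 5′ to 3′ on the gene's own strand in GRCr8, with that box in capitals.
Cyp2c7, chr1:247966274-247966393, plus strand: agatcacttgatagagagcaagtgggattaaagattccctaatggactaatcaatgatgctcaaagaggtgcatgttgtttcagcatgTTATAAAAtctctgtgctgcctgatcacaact
Cyp2c11, chr1:246175096-246175215, plus strand: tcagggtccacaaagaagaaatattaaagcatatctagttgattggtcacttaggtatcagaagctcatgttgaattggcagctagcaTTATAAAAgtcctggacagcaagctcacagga
Cyp2c13, chr1:248787189-248787308, minus strand: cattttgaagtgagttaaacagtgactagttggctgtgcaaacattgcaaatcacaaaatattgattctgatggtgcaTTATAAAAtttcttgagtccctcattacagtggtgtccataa
Cyp2e1, chr1:205269847-205269966, plus strand: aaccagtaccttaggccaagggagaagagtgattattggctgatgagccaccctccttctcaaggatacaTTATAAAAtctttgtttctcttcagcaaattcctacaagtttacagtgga

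The box begins 32 bases before the annotated start of Cyp2c7 and of Cyp2c11, 42 before that of Cyp2c13 and 50 before that of Cyp2e1. Searched on both strands over 300 bases (250 before the start and 50 after it), TTATAAAA was present in 4 of 7 promoters of these genes and in 1.72% of 33469 promoters, but the motif was picked after these promoters had been read. Only the exact octamer was counted, so the shorter TATAAA in the Cyp2a1 window, not printed here, is left out of that number. AGGTCA, the half-site bound by many nuclear receptors, was also in 4 of 7 (Cyp2c7, Cyp2c11, Cyp2c22 and Cyp2e1), against 16.2% of all promoters. None of the 7 windows held direct repeats of AGGTCA spaced by 1 or 4 bases (0.0538% and 0.00598% of all promoters). Exact repeats are so rare that their absence from 7 windows says little. The antioxidant response core TGACNNNGC (12.1% of all promoters) and the HNF4-type core CAAAGTCCA (0.391%) were absent from the 7 windows too. A match describes letters in a window and is no evidence of binding.

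Levels are the deposited log2 probe set values, so 1 unit is a doubling. A probe set was called when the adjusted p of limma's moderated test, by Benjamini-Hochberg over all 31042 probe sets, was under 0.05. A gene was described as held within a bound when the whole 95% confidence interval of its fold change lay inside it, because a p that misses the threshold does not show that levels are alike. Signal of different probe sets is not compared, since each has its own response.

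The liver origin of the arrays was plain: 7 of 7 hepatocyte markers stood above the array median in every group. The medians of single arrays ran from 4.829 to 4.899, correlations within a group from 0.991 to 0.997, and no arrays were identical. The difference between 3-prime and 5-prime control probe sets, a sign of RNA quality, averaged -0.025 to 0.0056 for Gapdh and 1.14 to 1.22 for actin over the 6 groups. In bulk liver, fewer cells of a type and less RNA per cell cannot be told apart.

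Of the 9 genes, Cyp2c6v1 was called higher at 641 mg/kg and at 64.1 mg/kg, and none was called lower at any dose. It rose by 1.201-fold at 641 mg/kg, and the intervals of the other 8 genes all included 1. At 641 mg/kg 1.13% of all probe sets were called higher and 0.512% lower, and the 1 call among 9 members is that of a single gene. The share called higher at 64.1 mg/kg was 0.0419% of all probe sets, 13 in number. The moderated F test over the 5 dose contrasts called 1 of the 9, again Cyp2c6v1, against 0.773% of all probe sets.

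No member was called at 6.41, 0.641 or 0.06 mg/kg, where 0.00% of all probe sets were called in either direction by limma. At an unadjusted p under 0.05 the members numbered 1 at 6.41 mg/kg, which was Cyp2c6v1, and 0 at each of the doses under it, beside 1282, 1477 and 1293 of all probe sets at 6.41, 0.641 and 0.06 mg/kg. At 641 and 64.1 mg/kg 3549 and 1843 of all 31042 probe sets had such a p. Those numbers are the background for the unadjusted counts of gene lists given further on. The median log2 fold change of the members was 0.041 at 641 mg/kg, beside -0.0073 over all probe sets, and 0.036 at 64.1 mg/kg, beside 0.0032. These contrasts share the 6 vehicle arrays and are not independent of one another.

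**Figure D1:**
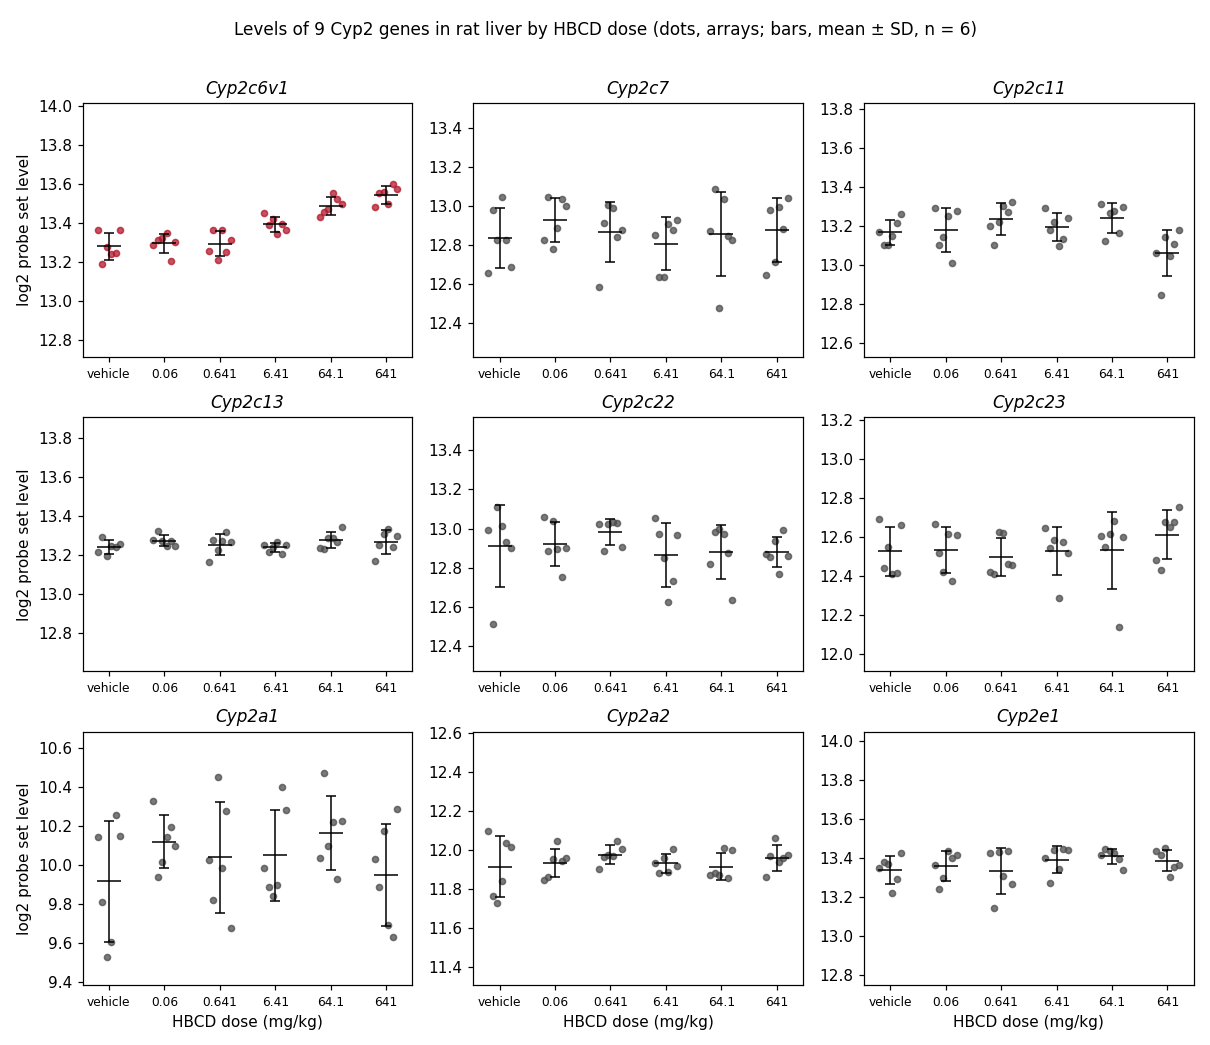
Log2 probe set level of each of the 9 genes (vertical axis, 1 panel per gene, all panels spanning the same number of log2 units) by HBCD dose in mg/kg (horizontal axis, vehicle at the left). Dots are arrays and bars are mean ± SD of 6 arrays; Cyp2c6v1, drawn in red, stands highest at 641 mg/kg, with a mean of 13.54, against 13.28 in vehicle, while Cyp2a1 has the widest spread.

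Cyp2c6v1 is the form of rat liver CYP2C known to be inducible by phenobarbital. Its log2 level in vehicle livers ran from 13.19 through a median of 13.26 to a highest value of 13.36. At 0.06 mg/kg the lowest, median and highest values were 13.20, 13.31 and 13.35. At 0.641 mg/kg they were 13.21, 13.28 and 13.37. Those 3 groups lay on top of each other.

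At 6.41 mg/kg the lowest, median and highest levels of Cyp2c6v1 were 13.34, 13.39 and 13.45. At 64.1 mg/kg they were 13.43, 13.48 and 13.55, and at 641 mg/kg 13.48, 13.56 and 13.60. Every array at 641 mg/kg and at 64.1 mg/kg stood above the highest vehicle array, and 5 of 6 arrays at 6.41 mg/kg did. Groups that did not overlap with vehicle were found for 1.71% of all probe sets at 641 mg/kg and for 0.351% at 64.1 mg/kg.

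Means ± SD of Cyp2c6v1 were 13.54 ± 0.046 at 641 mg/kg and 13.28 ± 0.070 in vehicle (n = 6 each), a fold change of 1.201 (95% CI 1.13 to 1.27; limma adjusted p = 1.07e-04). At 64.1 mg/kg the mean was 13.49 ± 0.046 and the fold change over vehicle 1.16 (1.09 to 1.22; limma adjusted p = 0.0292). The rise was therefore larger than the spread between arrays at both doses, though small in size. At 6.41 mg/kg the fold change was 1.08 (1.02 to 1.15) with an unadjusted p of 0.00867 and a limma adjusted p of 1.00, so it was not called, although 6 of 6 arrays lay above the vehicle mean. Fold changes at 0.641 and 0.06 mg/kg were both 1.01, with intervals of 0.952 to 1.07 and 0.955 to 1.07.

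Neighbouring doses of Cyp2c6v1 were compared for the 4 highest doses, where the groups overlapped in each of 3 comparisons and no difference was called. The level at 641 mg/kg was 1.04 times that at 64.1 mg/kg (0.981 to 1.10; limma adjusted p = 0.725), a comparison in which 0.242% of all probe sets were called. The level at 64.1 mg/kg was 1.07 times that at 6.41 mg/kg (1.01 to 1.13; limma adjusted p = 0.829; 0.00322% of probe sets called). The level at 6.41 mg/kg was 1.07 times that at 0.641 mg/kg (1.01 to 1.14; limma adjusted p = 0.967; 0.00% called). Mean levels stood in the order 641, 64.1, 6.41, 0.06 and 0.641 mg/kg and then vehicle, the last 3 of them within 0.016 log2 units.

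The probe set of Cyp2c6v1 varied little. Its residual SD within groups was 0.053 on the log2 scale, and only 0.667% of all probe sets had a smaller one. It is also among the brightest probe sets, with a mean over all arrays above that of 99.9% of them, at 13.38 where the highest value on any array was 14.59. Whether such brightness compresses its fold change was not tested. Its name ends in _a_at, a suffix for probes that match several transcripts, which does not by itself show that these come from other genes. The rat genome holds near-identical CYP2C copies, so a part of its signal may come from another transcript.

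The call at 641 mg/kg held in 20 of 20 alternative settings, while that at 64.1 mg/kg held in 9 of 21 and was lost when any of 8 of the 12 arrays compared was left out, with the fold change between 1.13 and 1.17 throughout. The 8 macrophage markers measured averaged, at 64.1 mg/kg, 8.01 on the log2 scale (arrays from 7.52 to 8.42), against 8.47 in vehicle (8.36 to 8.71). By limma none of the 8 was called, while all 8 had an unadjusted p under 0.05. The 3 neutrophil markers measured averaged 3.85 at 64.1 mg/kg and 4.21 in vehicle, likewise with 0 called by limma and all 3 at an unadjusted p under 0.05. Without the 3 arrays lowest in macrophage markers the log2 fold change of Cyp2c6v1 was 0.20, against 0.21 with all 6, and the limma adjusted p was 0.491. At 641 mg/kg the macrophage markers averaged 8.34, within 8.13 to 8.55 over the arrays. The hepatocyte markers averaged 12.61 at 641 mg/kg and 12.70 at 64.1 mg/kg, against 12.75 in vehicle, with none of the 7 called at either dose and 4 of 7 at an unadjusted p under 0.05 at 641 mg/kg. The part of cell composition in these fold changes was not tested.

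**Figure D2:**
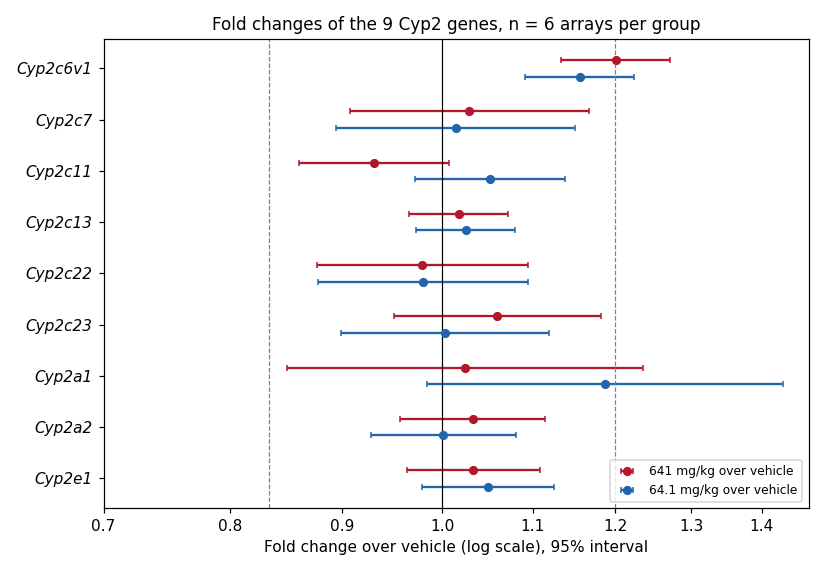
Fold change over vehicle (horizontal axis, log scale) with its 95% interval for each of the 9 genes, at 641 mg/kg in red and at 64.1 mg/kg in blue, from 6 arrays per group. Dashed lines mark 1.2-fold in either direction; the intervals of Cyp2c6v1 alone clear 1 at both doses, and at 641 mg/kg those of 7 genes lie between the dashed lines.

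The other 8 genes separated by how tightly their intervals bound them. At 641 mg/kg 7 of the 9 members had their whole 95% interval inside 1.2-fold either way, beside 61.9% of all probe sets, so this share is not far from the background. The exceptions were Cyp2c6v1, for its rise, and Cyp2a1, for its spread. The number was 7 at 64.1 mg/kg, 8 at 6.41 mg/kg, 8 at 0.641 mg/kg and 7 at 0.06 mg/kg. Cyp2a1 was an exception at each of these doses, with Cyp2c6v1 at 64.1 mg/kg and with Cyp2c7 (0.940 to 1.21) at 0.06 mg/kg. All 9 intervals lay inside 1.5-fold at every dose. The probe sets of Cyp2c7, Cyp2c11, Cyp2c13, Cyp2c22, Cyp2c23 and Cyp2e1 were also bright, each with a mean above that of 99.5% of all probe sets. Whether such brightness compresses their fold changes, and so narrows these intervals, was not tested.

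Among the male-specific forms, Cyp2c11, the main testosterone hydroxylase of adult male rat liver, stood lowest at 641 mg/kg. Its log2 level there ran from 12.85 through a median of 13.09 to 13.18, at 64.1 mg/kg from 13.12 through 13.27 to 13.31, and in vehicle from 13.10 through 13.16 to 13.26. At 641 mg/kg 5 of 6 arrays lay under the vehicle mean, but the groups overlapped. The fold change of 641 mg/kg over vehicle was 0.930 (0.860 to 1.01; limma adjusted p = 0.497), which bounds any fall at this dose.

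Cyp2c11 stood at 1.05 times vehicle at 64.1 mg/kg (0.972 to 1.14; limma adjusted p = 0.946), with 4 of 6 arrays above every vehicle array. Set directly against 64.1 mg/kg, 641 mg/kg gave a fold change of 0.885 (0.818 to 0.957), with all 6 arrays under the 64.1 mg/kg mean and an unadjusted p of 0.00332. Its limma adjusted p was 0.273, and the F test over the doses gave 0.560, so neither difference was called. Of the 9 genes it was the 1 with an unadjusted p under 0.05 in that comparison.

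Cyp2c13, another male-specific CYP2C, had the smallest spread of all 9. Its residual SD was 0.042, a value under which only 0.164% of probe sets fell, and its 6 group means spanned 0.037 log2 units. The lowest, median and highest levels were 13.17, 13.27 and 13.34 at 641 mg/kg, against 13.20, 13.24 and 13.29 in vehicle. The fold change at 641 mg/kg was 1.02 (0.966 to 1.07; limma adjusted p = 0.870), and at the other 4 doses it lay between 0.999 and 1.02. Cyp2c13 is thus the gene whose probe set signal was bounded most closely at 641 mg/kg. The name of its probe set ends in _s_at, a suffix for shared probes that differs from the _a_at of Cyp2c6v1.

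Cyp2a2, the male-specific CYP2A, had levels of 11.86, 11.96 and 12.06 (lowest, median and highest) at 641 mg/kg, against 11.73, 11.93 and 12.10 in vehicle. The vehicle arrays enclosed all those at 641 mg/kg. The fold change at 641 mg/kg was 1.03 (0.957 to 1.11; limma adjusted p = 0.827), and at 64.1 mg/kg 1.00 (0.928 to 1.08). Cyp2c22, a male-predominant form that hydroxylates retinoic acid, stood at 0.979 at 641 mg/kg (0.876 to 1.09; limma adjusted p = 0.940), with levels of 12.77, 12.86 and 12.99, against 12.51, 12.96 and 13.11 in vehicle. Its lowest vehicle array was far from the other 5, which ran from 12.90 to 13.11.

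The female-predominant forms are measured here in males. Cyp2c7 had levels of 12.65, 12.93 and 13.04 at 641 mg/kg, against 12.65, 12.82 and 13.04 in vehicle, ranges that all but coincide. Its fold change at 641 mg/kg was 1.03 (0.907 to 1.17; limma adjusted p = 0.921), and its highest group mean, 12.93, was that at 0.06 mg/kg. Levels of Cyp2c7 and of its chromosomal neighbour Cyp2c6v1 correlated at -0.145 within groups over the 36 arrays. The difference between their responses was not tested.

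Cyp2a1, a testosterone hydroxylase, was the most variable of the 9, with a residual SD of 0.243 that exceeded that of 93.7% of probe sets. Its lowest, median and highest levels were 9.63, 9.96 and 10.29 at 641 mg/kg, 9.93, 10.16 and 10.47 at 64.1 mg/kg, and 9.53, 9.98 and 10.25 in vehicle. The fold change at 641 mg/kg was 1.02 (0.850 to 1.24; limma adjusted p = 0.960). At 64.1 mg/kg it was 1.19 (0.984 to 1.43; limma adjusted p = 0.868) and at 0.06 mg/kg 1.15 (0.956 to 1.39), with 6 of 6 arrays above the vehicle mean in both groups. The group means followed no dose order, and the interval at 641 mg/kg leaves room for a rise of 1.24-fold or a fall to 0.850 of vehicle.

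A further probe set was listed under both Cyp2a1 and Cyp2a2 and was assigned to neither. It averaged 11.64 ± 0.14 at 641 mg/kg and 11.57 ± 0.25 in vehicle (n = 6 each), a fold change of 1.05 (0.936 to 1.18; limma adjusted p = 0.819). At the 4 lower doses its fold change ran between 1.05 and 1.07, so it too showed no call.

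The 2 members known for other substrates also stayed uncalled. Cyp2c23, the arachidonic acid epoxygenase of rat, had levels of 12.43, 12.66 and 12.76 at 641 mg/kg, against 12.41, 12.49 and 12.69 in vehicle. Its fold change was 1.06 (0.950 to 1.18; limma adjusted p = 0.769), with 4 of 6 arrays above the vehicle mean. Cyp2e1, which oxidizes ethanol and acetaminophen, had levels of 13.30, 13.39 and 13.45 at 641 mg/kg, against 13.22, 13.36 and 13.43 in vehicle. It stood at 1.03 times vehicle at 641 mg/kg (0.963 to 1.11; limma adjusted p = 0.804) and at 1.05 at 64.1 mg/kg (0.978 to 1.13), and 5 of 6 arrays were above the vehicle mean at each of the 2 doses.

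Within groups, the members did not vary as a block. Over the 36 arrays, after each group mean was removed, the closest pairs were Cyp2c11 with Cyp2c23 (Pearson r of 0.635), Cyp2a1 with Cyp2e1 (0.515), Cyp2a1 with Cyp2a2 (0.488) and Cyp2c6v1 with Cyp2a2 (0.469). The lowest value was -0.358, for Cyp2c13 with Cyp2c22. These values are descriptions, since all arrays share one processing.

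Among 14208 other genes, those whose levels followed Cyp2c6v1 most closely over the 36 arrays were Cyp3a23-3a1 (r of 0.887), Cyp3a2 (0.882), both P450s of the steroid- and drug-oxidizing CYP3A family, and the carboxylesterase Ces2c (0.874). With group means removed the values were 0.405, 0.527 and 0.585, so part of the likeness lay between groups. Ces2c levels differed far more in size, with a fold change of 4.41 at 641 mg/kg and 2.07 at 64.1 mg/kg. Cyp3a23-3a1 stood at 2.45 and 1.82 times vehicle at those doses, and Cyp3a2 at 1.13 and 1.10. The last of these was not called (limma adjusted p = 0.422).

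**Figure D3:**
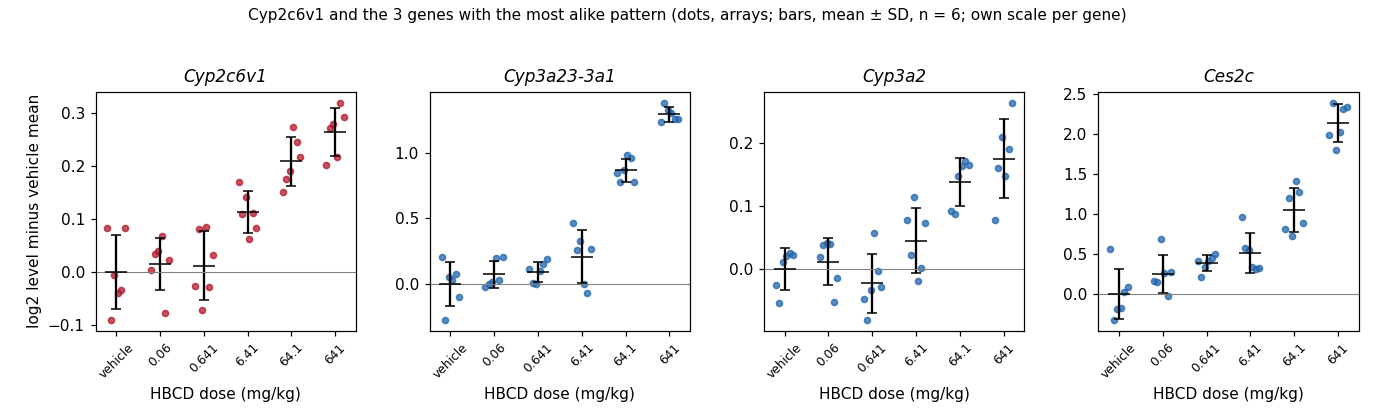
Log2 level minus the gene's own vehicle mean (vertical axis, a separate scale for each panel) by HBCD dose in mg/kg, for Cyp2c6v1 (red) and the 3 genes most correlated with it over 36 arrays (blue). Dots are arrays and bars are mean ± SD of 6; at 641 mg/kg Cyp2c6v1 reaches a mean of 0.26 and Ces2c, on its wider scale, 2.14.

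Set among the other P450 genes, the Cyp2c, Cyp2a and Cyp2e members showed small differences. Of 29 other drug-metabolizing P450s listed, 20 were measured, and at 641 mg/kg 4 were called higher and 2 lower. The 4 were Cyp3a23-3a1 (2.45-fold; 95% CI 2.21 to 2.71), Cyp3a9 (2.17-fold; 1.59 to 2.97), Cyp3a18 (1.99-fold; 1.75 to 2.26) and Cyp3a2 (1.13-fold; 1.07 to 1.19). The 2 lower were Cyp1a2, which oxidizes caffeine and is made around the central vein (0.725 of vehicle; 0.670 to 0.783), and Cyp2b3 (0.893; 0.846 to 0.943). The CYP2B genes among the 20 were Cyp2b3 and Cyp2b12 alone, without Cyp2b1 or Cyp2b2, so induction of that family was not assessed. Of the 20, at 64.1 mg/kg, 2 were called higher and 0 lower.

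By limma none of 20 P450s of fatty acid and sterol metabolism was called at 641 mg/kg, of 21 listed, with 4 at an unadjusted p under 0.05. Of 8 further Cyp2c and Cyp2a genes listed, 2 were measured and neither was called: Cyp2c12, the female-specific form, stood at 0.875 (0.613 to 1.25; limma adjusted p = 0.851) and Cyp2a3, a form known mainly from lung and nose, at 1.15 (1.005 to 1.32; limma adjusted p = 0.410). Cyp2a3 averaged 3.18 ± 0.10 at 641 mg/kg and 2.98 ± 0.17 in vehicle, a low level under every array median. Cyp2c12 averaged 11.10 ± 0.54 at 641 mg/kg and 11.29 ± 0.23 in vehicle. Cyp2c12 and Cyp2a3, the pair measured of that list, were named after their values were seen.

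**Figure D4:**
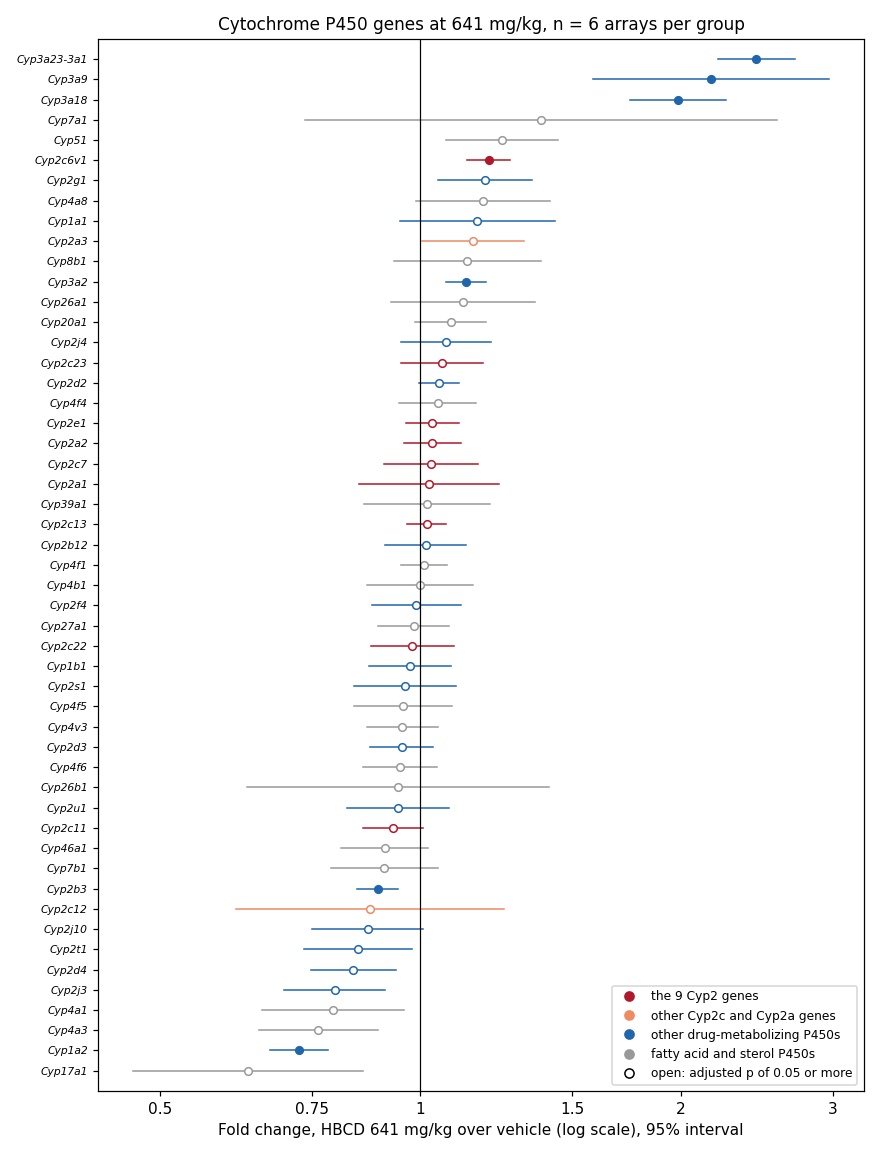
Fold change at 641 mg/kg over vehicle (horizontal axis, log scale) with 95% interval for 51 P450 genes in order of size, from 6 arrays per group. Filled points were called and open points were not; the 9 genes described here, in dark red, lie between 0.930 for Cyp2c11 and 1.201 for Cyp2c6v1, while the filled Cyp3a points at the top reach 2.45.

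The partners that P450 enzymes need rose in part. Of 15 electron donor and heme supply genes measured (17 listed), 3 were called higher and 0 lower at 641 mg/kg, and by limma none was called at 64.1 mg/kg (3 at an unadjusted p under 0.05). Por, the oxidoreductase that passes electrons to all microsomal P450s, averaged 8.79 ± 0.21 at 641 mg/kg and 8.22 ± 0.27 in vehicle (n = 6 each), a fold change of 1.48 (1.27 to 1.73; limma adjusted p = 0.00268), and both of its probe sets were called. Cyb5a, the microsomal cytochrome b5, rose by 1.14-fold (1.08 to 1.196; limma adjusted p = 0.00241), with 6 of 6 arrays above every vehicle array, and Pgrmc1, a heme-binding P450 partner, by 1.12-fold (1.06 to 1.18; limma adjusted p = 0.0315).

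Transcripts of the regulators did not pass the test at either of the 2 highest doses. At 641 mg/kg 0 of 16 receptors and factors of P450 transcription and 0 of 14 genes of growth hormone signalling were called by limma, with 2 and 4 of them at an unadjusted p under 0.05. The 2 of 16 is a share near that of all probe sets, 3549 of 31042, while the 4 of 14 is a larger one. Named after their values were seen, Nr1i3 (CAR) stood at 1.00 (0.777 to 1.29), Nr1i2 (PXR) at 1.01 (0.911 to 1.12), Hnf4a at 0.943 (0.850 to 1.05) and Ghr, the growth hormone receptor, at 0.862 (0.787 to 0.943; limma adjusted p = 0.0868). The 2 members of the receptor list with an unadjusted p under 0.05 both stood lower, the corepressor Nr0b2 at 0.507 (0.335 to 0.769; limma adjusted p = 0.0906) and the forkhead factor Foxa3 at 0.708 (0.503 to 0.995; limma adjusted p = 0.426). The 4 genes of growth hormone signalling with such a p all stood lower too. Besides Ghr they were Igfbp1 at 0.486 (0.302 to 0.783), Stat5b at 0.882 (0.803 to 0.968) and Igf1 at 0.921 (0.861 to 0.986). Receptor transcripts do not measure receptor activity.

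Calls among the sex-biased genes outside the 9 members went in both directions for the male-predominant list. Of 10 other male-predominant genes measured, 3 were called higher at 641 mg/kg (Cyp3a18, Cyp3a2 and the bile acid and steroid transporter Slco1a1, at 1.27-fold) and 1 lower (the hydroxy acid oxidase Hao2, at 0.789). Of 6 other female-predominant genes measured, 1 was called higher, the sulfotransferase Sult2a2 (1.25-fold), at a low level of 2.82 ± 0.13, against 2.50 ± 0.15 in vehicle (n = 6 each). The members that share this bias, Cyp2c11, Cyp2c13, Cyp2c22, Cyp2a2, Cyp2c7 and Cyp2a1, were not called in either direction.

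Some genes of both hepatocyte zones, the one around the central vein, where Cyp2e1 is made, and the periportal one, were called lower at 641 mg/kg. Of 13 pericentral genes measured, 4 were called lower at 641 mg/kg and 0 higher: the ornithine aminotransferase Oat (0.560), Cyp1a2 (0.725), the glutamine synthetase Glul (0.758, with 1 of its 3 probe sets called) and Gulo, of vitamin C synthesis (0.792). By limma none of the 13 was called at 64.1 mg/kg, with 2 at an unadjusted p under 0.05. Of 11 periportal genes, 1 was called lower at 641 mg/kg, the urea cycle enzyme Ass1 (0.710), and 0 higher. At an unadjusted p under 0.05 there were 6 of the 11 periportal and 5 of the 13 pericentral genes, with a median log2 fold change of -0.19 for the periportal list and -0.045 for the pericentral list, beside -0.0073 over all probe sets. Cyp2e1 itself stood at 1.03 of vehicle at 641 mg/kg, and the difference between it and the other pericentral genes was not tested.

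Over the whole gene set, the order of fold change at 641 mg/kg was Cyp2c6v1 (1.201), Cyp2c23 (1.06), Cyp2e1 (1.03), Cyp2a2 (1.03), Cyp2c7 (1.03), Cyp2a1 (1.02), Cyp2c13 (1.02), Cyp2c22 (0.979) and Cyp2c11 (0.930). Of 6 lists of markers of other cell types, limma called 0 members at 641 mg/kg in 5, with 0 or 1 per list at an unadjusted p under 0.05. In the list for lymphocytes Cd8a was called lower (0.633 of vehicle; limma adjusted p = 0.0176) by 1 of its 3 probe sets.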

How the data were processed

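Liver RNA of 36 samples was hybridized to rat 3-prime expression arrays. The authors deposited log2 expression values per probe set, made, per the submitters' processing notes, with affy and its RMA method. RMA corrects background, normalizes between arrays and summarises probes. Its version and options are not given in the sources used here. Sample titles gave the groups and replicate numbers. The number of arrays limits the precision.

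Leaving out 57 control probe sets, 31042 were tested with limma 3.58.1 in R 4.3.3. The model had 1 factor, group, and all 36 arrays entered it. All tests were two-sided, and the Benjamini-Hochberg adjustment was made separately for each contrast. The design text names R/maanova at an FDR of 5%, which was not used here. Symbols were those of the platform annotation, updated through a GRCr8 gene table. Probe sets with several symbols were assigned to no gene. A gene with several probe sets was represented by the one with the highest mean. The limma step was checked on simulated data.

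The members and gene lists were chosen with earlier results of these data known. All members are named, and of each list up to 4 called genes per direction with the largest change at 641 mg/kg. For the member called by the F test, the 3 most correlated genes are named. Other genes were named after their values were seen.

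Alternatives were median centring, repeated quantile normalization, a filter at a group mean of 6, another variance model, array weights, a fit on the 2 groups compared, the replicate number as a block, adjustment over the 5 doses together, 1 test per gene symbol, a bound of 1.5-fold, and each array left out in turn. Leaving out the 3 arrays of 64.1 mg/kg lowest in macrophage markers was added after seeing the data.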

Additional observations from a re-analysis of the deposited data

Results flagged for a closer look

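In 3 of the 54 sets of 6 arrays formed by 9 genes and 6 groups, the lowest array stood apart from the other 5 by Dixon's criterion at the 95% level, where chance gives about 1 in 20. Replicate 5 of 64.1 mg/kg had a Cyp2c23 level of 12.14, while the other 5 arrays of that dose ran from 12.55 to 12.68. Replicate 4 of 6.41 mg/kg had a Cyp2c23 level of 12.29, beside 12.52 to 12.65 in the others. Replicate 2 of vehicle had a Cyp2c22 level of 12.51, beside 12.90 to 13.11 in the others. The 3 values come from 3 different arrays, and no cause was tested.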

How the results depend on the processing

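At 641 mg/kg Cyp2c6v1 was called in 20 of 20 alternatives, with a fold change of 1.18 to 1.21 and an adjusted p of at most 0.0232. At 64.1 mg/kg the number of members called was 1, and it was 0 with quantile normalization repeated, with only the 2 groups compared in the fit, and with the replicate block (adjusted p of Cyp2c6v1 0.138, 0.568 and 0.0740). It was also 0 without the 3 arrays lowest in macrophage markers, which left 3 arrays at that dose (0.491, chosen after seeing the data). Leaving out 1 array at a time gave 0 to 1 calls there: Cyp2c6v1 was lost without vehicle replicate 2, 3, 4 or 5 or 64.1 mg/kg replicate 3, 4, 5 or 6, with an adjusted p of 0.0630 to 0.122. Deviations of same-numbered arrays in different groups correlated at -0.252 to 0.321 over 90 pairs (14 over 0.1). Their median was 0.025, against -0.0017 for arrays of different numbers, and 11 of 36 arrays correlated best with their own number. Whether same-numbered arrays share more than the number was not tested. The replicate block changed no other count of calls. At 6.41 mg/kg Cyp2c6v1 was called in 0 of 20 alternatives. The other 8 members gave 40 fold changes, recomputed 808 times with 0 calls (lowest adjusted p 0.278). Of the 40, 22 turned sign in some alternative, none of them over 0.073 in log2 size as reported, and 0 moved by more than 1 SD. The number of members inside 1.2-fold at 641 mg/kg ran from 5 to 7 with 1 array left out, and 9 lay inside 1.5-fold. The 6 arrays per group limit the precision most for Cyp2a1, and the cause of the lost calls at 64.1 mg/kg was not tested.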
